A study of Rattus norvegicus with 96 samples.

Results

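CREB, BDNF and the kinases that act with them were described here over 8 genes: Creb1, Bdnf, Ntrk2, Prkca, Prkce, Camk2a, Camk4 and Fyn. The platform annotation mapped 21 of the 31042 probe sets to these symbols, and all 21 are accounted for. RNA came from 2 brain regions of alcohol-preferring P rats and was measured on Affymetrix rat arrays: the central amygdala (CeA) and the nucleus accumbens shell (NAc shell). The line was selected for high ethanol intake, and rats of both treatments carry that genetic background. Ethanol rats drank ethanol in sessions of limited access, called binge drinking in the series title, while water rats got no ethanol. Sampling followed the final session by 1, 6 or 24 h. For the CeA this gave 11, 10 and 10 arrays of ethanol rats, against 6, 5 and 6 of water rats, in order of time. For the NAc shell it gave 10, 10 and 11 of ethanol rats, against 7, 5 and 5 of water rats. The labels give neither the age, sex or ethanol intake of the rats, nor whether both regions came from the same rats. They also do not say that each array is a separate animal, so p-values measure the spread between these samples, which may be partly technical.

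BDNF is a secreted neurotrophin that binds the receptor tyrosine kinase TrkB, the product of Ntrk2, and activates MAP kinase, PI3 kinase and phospholipase C signalling. Calcium entry and phospholipase C in turn activate calcium/calmodulin kinases and protein kinase C, and several of these kinases lead to phosphorylation of CREB, the transcription factor encoded by Creb1, which binds cyclic AMP response elements and drives Bdnf and many activity-dependent genes. In rodents, CREB and BDNF of the amygdala have been linked to anxiety and ethanol intake, and Fyn and protein kinase C epsilon to the response to ethanol in mice. Arrays measure RNA, so none of the phosphorylation steps of this pathway was measured.

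The cyclic AMP response element is TGACGTCA, and many sites hold only its core, TGACG, which overlaps it and reads CGTCA on the other strand. RefSeq start windows (GRCr8, 250 bases before each annotated start and 50 from it on) were found for all members but Ntrk2. Stretches from Creb1, which encodes the factor, and Bdnf, a textbook target, are printed to show where the core lies. Each holds 160 bases before an annotated start and 20 from it on, 5′ to 3′ on the + strand, with the core in capitals. The Creb1 stretch is chr9:73397349-73397528 and the Bdnf stretch is chr3:116637698-116637877, and both lie inside the annotated gene, downstream of its first base.
Creb1: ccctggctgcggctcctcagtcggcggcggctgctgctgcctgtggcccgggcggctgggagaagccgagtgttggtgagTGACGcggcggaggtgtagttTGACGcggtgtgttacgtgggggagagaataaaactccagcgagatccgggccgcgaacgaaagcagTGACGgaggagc
Bdnf: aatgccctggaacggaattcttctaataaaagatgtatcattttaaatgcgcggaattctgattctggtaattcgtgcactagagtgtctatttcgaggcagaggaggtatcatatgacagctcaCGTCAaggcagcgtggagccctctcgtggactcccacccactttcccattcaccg
The Creb1 stretch holds the core 80 and 59 bases upstream of the start base and again at position 9 from it. The Bdnf stretch holds it once, on the other strand, 35 bases upstream, in 1 of 6 windows of that gene. A Camk2a window held it 150 and 92 bases upstream. Of the 13 windows of members, 3 (23.1%) held the core on either strand and 0 held the full element, against 21.2% and 1.83% of all 33469 windows. In the 19 windows found for listed CREB-responsive genes, 13 (68.4%) held the core and 5 (26.3%) the full element. A match describes letters in a window and shows no binding.

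Log2 values ran up to 15.25 for the CeA and 15.85 for the NAc shell, and no pair of arrays was identical. Lower quartiles of the arrays did not overlap between regions (5.75 to 5.88 for the CeA, 6.01 to 6.16 for the NAc shell), which points to a normalization run per region. Of the 5 measured markers of central amygdala neurons, all above the testing limit (the 40th percentile of probe set means) in the CeA, Prkcd and Crh averaged 9.68 and 9.15 there, against 8.88 and 6.501 for the NAc shell, the last below its limit. Nts, Sst and Npy were not higher in the CeA, at 11.04, 11.58 and 9.065, against 11.52, 11.85 and 11.79 for the NAc shell, so that list does not set the CeA arrays apart. Drd1, Adora2a and Rgs9, of medium spiny neurons, averaged 13.74, 11.98 and 11.41 in NAc shell arrays. All 8 measured markers of these neurons were also above the testing limit in the CeA, with Drd1 at 11.30, Penk at 13.68, Adora2a at 9.465 and Rgs9 at 8.559. By a low median correlation with the rest of their region, 3 CeA arrays (ethanol 1 h, ethanol 6 h and water 6 h) and 5 NAc shell arrays, all of ethanol rats, stood apart. Some results, not all, are also given without them. The CeA titles fall into 4 runs of array numbers, and what a run stands for is not stated. Runs 1 to 3 hold both treatments at every time, while the 2 water arrays of run 4 are both of 6 h. Differences within a run are therefore means over the times that hold both treatments, a choice made after the data were seen, and for run 4 they set 2 ethanol arrays against 2 water arrays at 6 h. In bulk tissue, fewer cells of a type and less RNA per cell cannot be told apart.

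Of the 21 probe sets, 14 had a mean above the region's 40th percentile (6.96 in the CeA, 7.09 in the NAc shell) and were tested in each region. They cover Creb1, Prkca, Prkce and Camk4 with 1 probe set each, Camk2a with 3, Fyn with 2 and Ntrk2 with 5. Both Bdnf probe sets, 3 of Creb1 and 1 each of Camk2a and Camk4 lay below the limit in both regions. Levels are compared for 1 probe set across arrays, never between probe sets.

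In the CeA, ethanol rats had slightly higher values than water rats for most of these probe sets, and none passed the test. Over the mean of the 3 times, 12 of 14 differences were above 0, against 49.3% of all 18625 probe sets tested, with a median of 0.145 (all probe sets: −0.001). At an adjusted p under 0.05 (limma, Benjamini-Hochberg over all probe sets of the region), 0 of 14 were called, and 0% of all probe sets. At an unadjusted p under 0.05, 5 of 14 passed, all higher in ethanol rats, against 8.16% of all probe sets (4.61% in that direction). Those 5 were Prkca, Creb1, Camk2a 1389824_at, Ntrk2 1370652_at and Camk4, with adjusted p between 0.544 and 0.598. With the 3 arrays of low correlation left out, 2 of the 5 kept an unadjusted p under 0.05, Camk2a 1389824_at and Camk4. In that fit 21 of all probe sets passed adjustment, and the share with an unadjusted p under 0.05 was not worked out. Within the 4 runs, 6 of the 14 probe sets had a higher mean in ethanol rats in every run at matched times (9 of 14 over all arrays of a run). The share of all probe sets was not worked out for these counts, in which probe sets of the same gene count separately. With the run as a block, 5 of 14 again had an unadjusted p under 0.05, against 17% of all probe sets, and the smallest adjusted p was 0.145, where 0.258% of all probe sets passed.

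**Figure D1:**
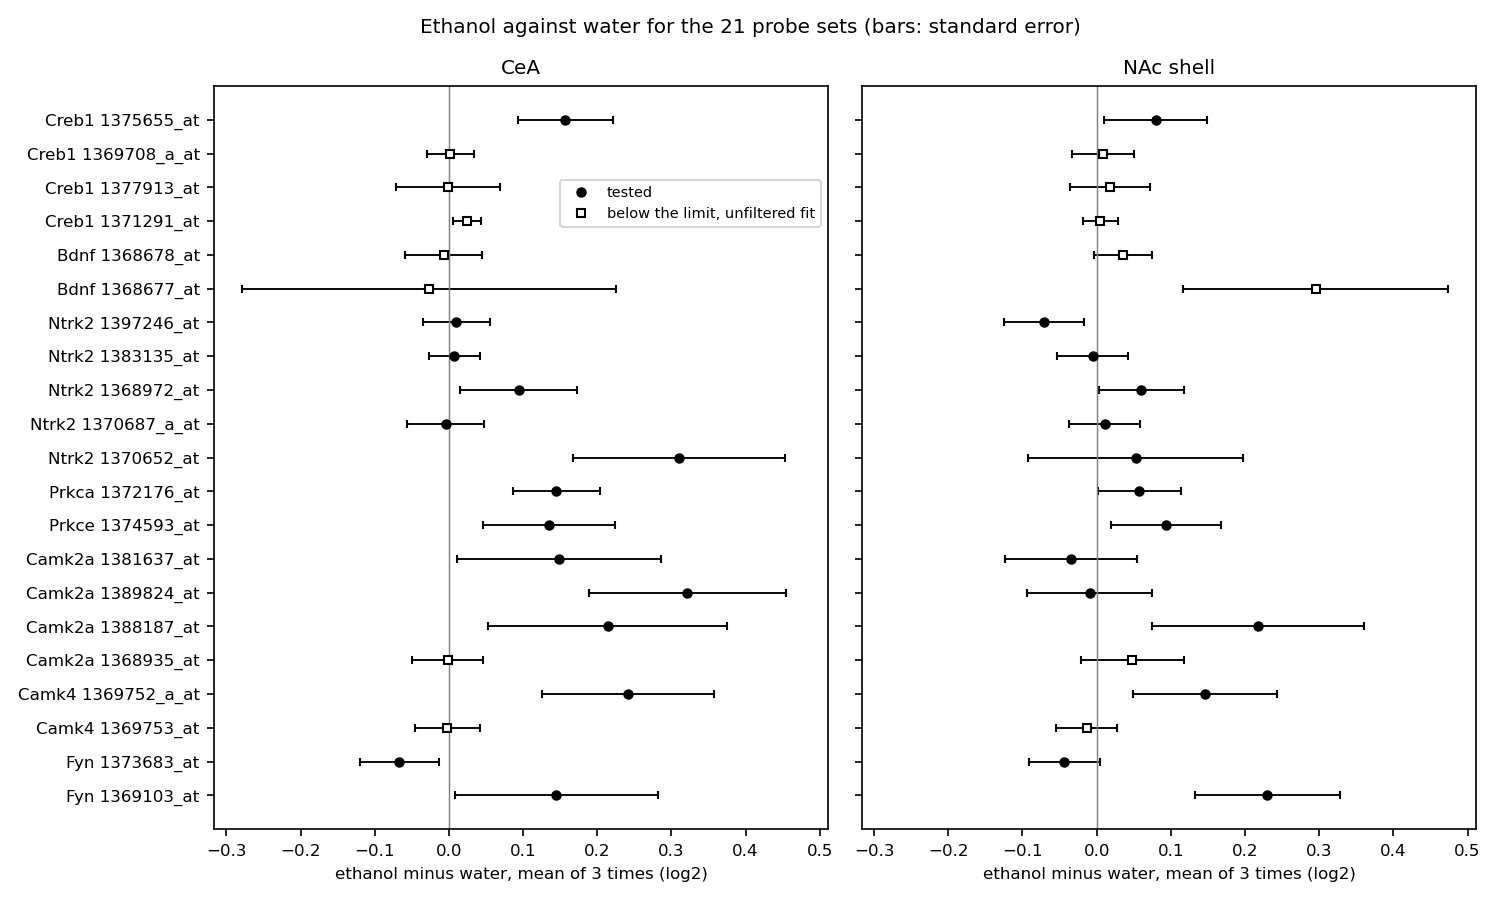
Difference of ethanol minus water rats (log2, mean of the 3 times) for each of the 21 probe sets in the CeA (left) and NAc shell (right); points are fitted differences, bars their standard errors, and open squares the 7 probe sets below the testing limit, from a fit without that filter. In the CeA, 12 of the 14 tested probe sets lie right of 0, and the widest bar belongs to Bdnf 1368677_at.

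The same probe sets of the NAc shell were spread around 0. Over the mean of the 3 times, 9 of 14 differences were above 0, against 53.4% of all probe sets, with a median of 0.06. None was called (0% of all probe sets), with a smallest adjusted p of 0.369. At an unadjusted p under 0.05, 1 of 14 passed, Fyn 1369103_at, against 11.1% of all probe sets.

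The test of whether the ethanol effect differed by time called none of these probe sets. At an unadjusted p under 0.05 it gave 0 of 14 in the CeA (1.34% of all) and 0 of 14 in NAc shell (0.864% of all). In the CeA, 10 of 14 differences were above 0 at 1 h, 12 at 6 h and 9 at 24 h, against 55.5%, 46.1% and 48.8% of all probe sets. An unadjusted p under 0.05 was reached by 0, 3 and 0 of 14 at these times, against 5.43%, 8.22% and 0.655% of all probe sets. Within NAc shell arrays, 10, 9 and 5 of 14 differences were above 0, against 52%, 53% and 53.8%, and 0, 1 and 0 passed at an unadjusted p, against 1.88%, 5.23% and 3.74%. The 3 CeA probe sets at 6 h were Ntrk2 1370652_at, Camk4 and Creb1. Without the arrays of low correlation 0 of 14 passed there, and the share of all probe sets was not worked out for that fit. Each single-time test in the CeA set 10 or 11 ethanol arrays against 5 or 6 water arrays. At 6 h, run 4 gave 2 of the 10 ethanol arrays and 2 of the 5 water arrays, so the runs were not balanced there.

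**Figure D2:**
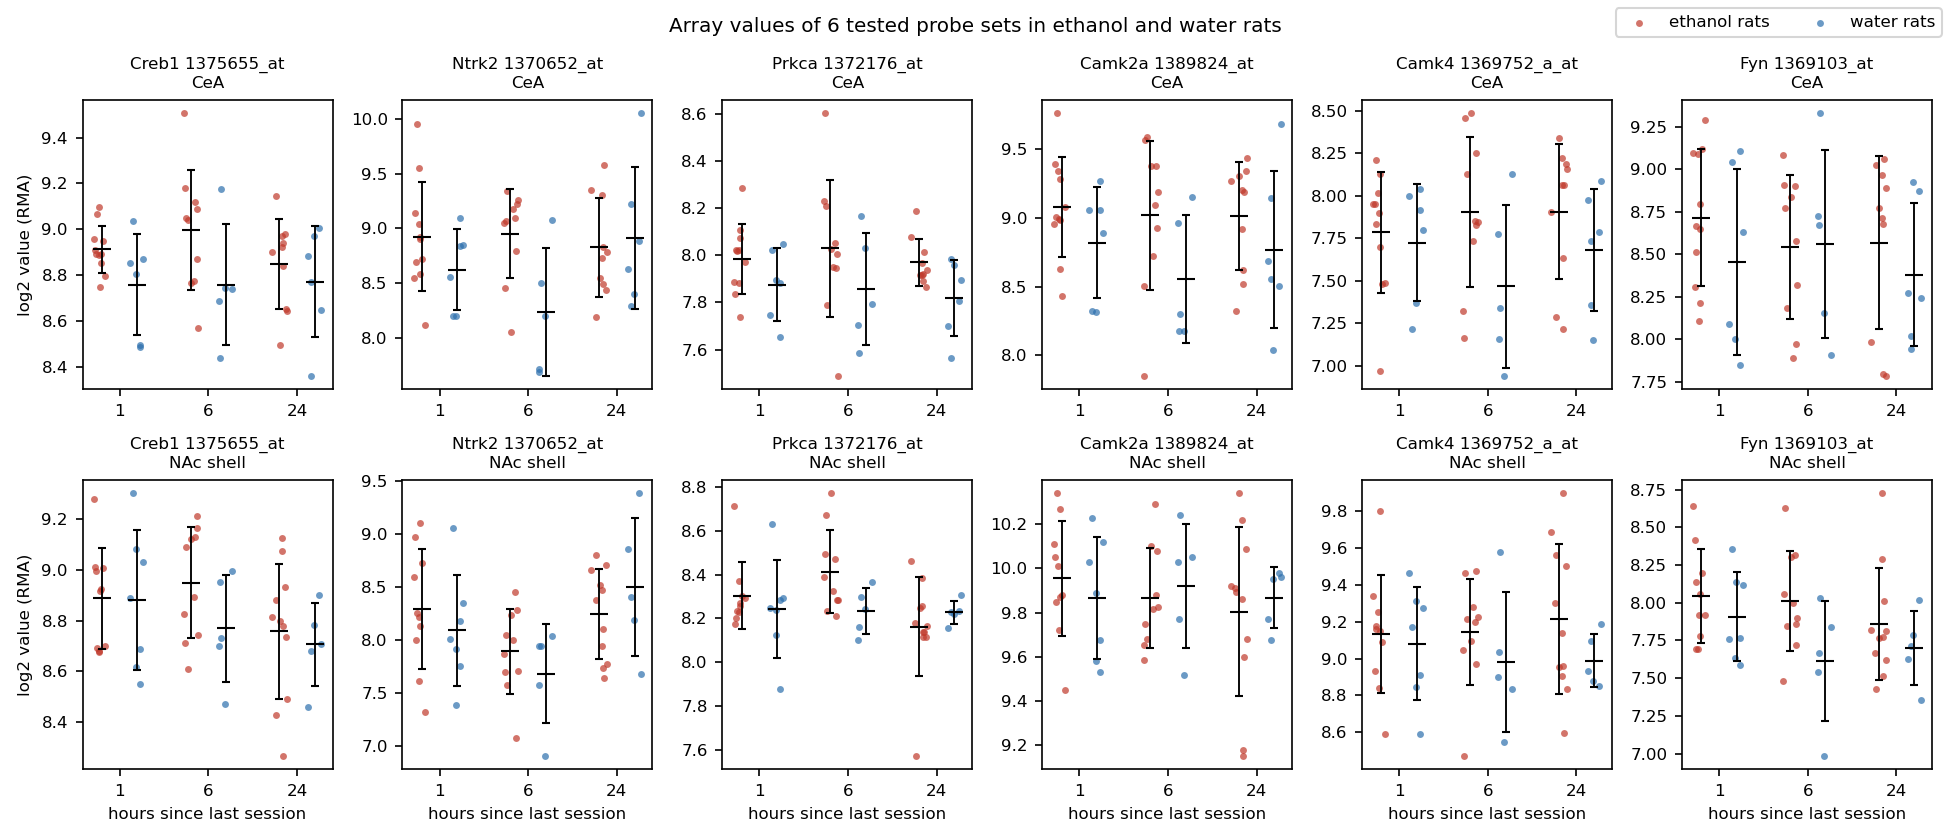
Log2 values of every array for 6 tested probe sets in the CeA (top row) and NAc shell (bottom row) at 1, 6 and 24 h, with ethanol rats left of water rats at each time; horizontal marks are group means and bars their SD. Ethanol and water arrays overlap in every panel, and in the CeA at 6 h the means of Creb1, Ntrk2 1370652_at, Camk2a 1389824_at and Camk4 lie higher in ethanol rats.

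Bdnf, the ligand of this pathway, was measured by 1368677_at and 1368678_at, both below the testing limit, so their values bear on Bdnf only weakly. In the CeA, 1368677_at averaged 6.20 ± 0.85 (SD) in 31 ethanol arrays, with a lowest, median and highest value of 5.32, 6.04 and 9.51, and 6.25 ± 0.86 in 17 water arrays, with 5.37, 5.95 and 8.18. NAc shell values averaged 5.38 ± 0.72 in ethanol rats, with 4.75, 5.20 and 8.55, and 5.10 ± 0.29 in water rats, with 4.76, 5.14 and 5.69. Most arrays of both treatments lay close together near the low end, and a few stood far above them. In a fit without the filter, ethanol minus water was −0.03 ± 0.25 (SE) in the CeA (adjusted p = 0.993) and 0.30 ± 0.18 in the NAc shell (adjusted p = 0.639). Leaving out the highest array of each region changed these to −0.14 and 0.18. The other probe set, 1368678_at, ranged over 5.54 to 6.47 in CeA arrays and 5.33 to 5.95 in NAc shell arrays, with differences of −0.01 ± 0.05 and 0.04 ± 0.04.

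The spread of Bdnf 1368677_at exceeded that of 99.7% of probe sets in the CeA and 99.5% in NAc shell, and its high arrays were also high in markers of cortical and basolateral amygdala pyramidal neurons. The highest CeA array, an ethanol array at 6 h, had a Bdnf value of 9.51, and its mean over the 5 measured of 6 pyramidal markers was 7.52, the highest of that region. Its value for Slc17a7, the vesicular glutamate transporter of cortical neurons, was 9.92 against a CeA median of 6.11. The highest NAc shell array, also an ethanol array at 6 h and 1 of the arrays of low correlation, had a Bdnf value of 8.55 and a pyramidal mean of 8.61, again the highest, with Slc17a7 at 11.4 against a median of 6.62. Pyramidal means ranged from 5.45 to 7.52 in ethanol and 5.55 to 7.12 in water rats of the CeA. In the NAc shell they ranged from 6.16 to 8.61 in ethanol and 6.27 to 6.97 in water rats. All 5 markers lay below the limit in the CeA, and 4 of 5 in NAc shell. Over the 48 CeA arrays, Bdnf 1368677_at and the pyramidal mean had r = 0.847 and rho = 0.584 (permutation p = 1e-05, the smallest that 100000 resamples can give, and 2e-05), and r = 0.752 without the 2 farthest arrays. Within the 4 runs r was 0.561, 0.922, 0.914 and 0.0301, so the relation did not hold in run 4. Over the 48 NAc shell arrays r was 0.860 and rho 0.483 (permutation p = 1e-05 and 0.00058), and r was 0.481 without the 2 farthest arrays. Adjusted over the 12 relations tested by permutation, the p of r was 1.5e-05 in both regions. That adjustment does not cover the choice of this probe set, which was made after its values were seen. The part of pyramidal neurons in the Bdnf values was not tested.

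Ntrk2, the receptor, had 5 tested probe sets, and they did not behave alike. TrkB has a full-length kinase form and truncated forms, and the annotation used does not say which form each probe set reads. The main probe set, 1397246_at, was nearly constant: 12.76 ± 0.14 in ethanol rats and 12.75 ± 0.15 in water rats of the CeA, and 12.37 ± 0.19 and 12.44 ± 0.16 in those of the NAc shell. Its ethanol differences were 0.01 ± 0.05 (SE) and −0.07 ± 0.05. The probe sets 1383135_at, 1368972_at and 1370687_a_at differed between ethanol and water rats by 0.01, 0.09 and −0.004 in the CeA and by −0.005, 0.06 and 0.01 in the NAc shell, none with an unadjusted p under 0.05.

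Of the Ntrk2 probe sets, 1370652_at varied most between arrays. In the CeA at 6 h it had a lowest, median and highest value of 8.06, 9.08 and 9.34 in 10 ethanol arrays, against 7.71, 8.50, 9.08, 7.69 and 8.20 in 5 water arrays. The ethanol arrays were mostly above the water arrays, and the groups overlapped. The difference was 0.72 ± 0.26 (SE), with an unadjusted p of 0.00785 and an adjusted p of 0.571. At 1 h the means were 8.93 ± 0.50 and 8.63 ± 0.37, and at 24 h 8.83 ± 0.45 and 8.91 ± 0.65, in ethanol and water rats. Over the 3 times the difference was 0.31 ± 0.14 (adjusted p = 0.594), and 20 of 31 ethanol arrays exceeded the mean of water rats at the same time. At matched times it was 0.02, 0.31 and 0.08 within runs 1 to 3 and 1.20 within run 4, where only 6 h holds both treatments. All 3 CeA arrays of low correlation belong to run 4: an ethanol array of 1 h, and an ethanol and a water array of 6 h. Without these 3 arrays the 6 h difference was 0.57 (unadjusted p = 0.0534). Within NAc shell arrays, the difference over the 3 times was 0.05 ± 0.15.

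Fyn encodes a Src-family tyrosine kinase that acts downstream of receptors such as TrkB and phosphorylates NMDA receptor subunits. Its main probe set, 1373683_at, averaged 11.41 ± 0.17 in ethanol rats and 11.48 ± 0.19 in water rats of the CeA, and 10.87 ± 0.17 and 10.92 ± 0.13 in those of the NAc shell. The ethanol differences, −0.07 ± 0.05 and −0.04 ± 0.05 (SE), had the opposite sign to those of the second probe set. Fyn 1369103_at averaged 8.61 ± 0.44 in ethanol and 8.46 ± 0.48 in water rats of the CeA (difference 0.145 ± 0.137), and that difference was −0.06 with array quality weights. NAc shell values averaged 7.97 ± 0.34 in ethanol rats, with a lowest, median and highest value of 7.43, 7.90 and 8.73, and 7.76 ± 0.32 in water rats, with 6.98, 7.76 and 8.36. In 23 of 31 cases the ethanol array exceeded the mean of water rats at the same time, and the groups overlapped along most of their range. The difference was 0.23 ± 0.10, with an unadjusted p of 0.0227 and an adjusted p of 0.369. At 6 h in the NAc shell, 10 ethanol arrays had 7.48, 7.95 and 8.63 as lowest, median and highest value, against 7.54, 8.03, 7.84, 7.67 and 6.98 in 5 water arrays, a difference of 0.40 ± 0.18 (adjusted p = 0.899). Without the lowest of those water arrays it was 0.24 (unadjusted p = 0.193).

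Fyn 1369103_at moved with a measure of RNA integrity, the difference between the 3′ and 5′ Gapdh control probe sets, which rises as RNA or its amplified copy gets shorter. That difference averaged 2.92 ± 0.55 in ethanol and 2.91 ± 0.50 in water rats of the CeA, and 1.79 ± 0.25 and 1.85 ± 0.27 in those of the NAc shell. Against Fyn 1369103_at, r was −0.614 and rho −0.549 over the 48 NAc shell arrays (permutation p = 1e-05 and 7e-05; adjusted 1.5e-05 for r), and −0.570 without the 2 farthest. In the CeA r was −0.778 and rho −0.756 over 48 arrays (permutation p = 1e-05 each) and −0.854 without the 2 farthest. Within runs 1 to 4 it was −0.917, −0.806, −0.0186 and −0.048, so the relation held in runs 1 and 2 and not in runs 3 and 4. Median Gapdh differences of those runs were 2.36, 2.49, 3.53 and 3.12. The permutation shuffled all 48 arrays without regard to run, and this Fyn probe set was chosen after its values were seen. With the Gapdh difference as a covariate, the CeA difference of this Fyn probe set between ethanol and water rats was 0.15 (unadjusted p = 0.0742), and in the NAc shell it was 0.16 (unadjusted p = 0.0616).

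Prkca and Prkce encode protein kinase C alpha, a calcium-dependent isoform, and epsilon, a calcium-independent one. In the CeA Prkca averaged 8.0 ± 0.19 in ethanol rats, with a lowest, median and highest value of 7.49, 7.97 and 8.60, and 7.85 ± 0.17 in water rats, with 7.57, 7.88 and 8.17. In 27 of 31 cases the ethanol array exceeded the mean of water rats at the same time, and the groups overlapped. The difference was 0.145 ± 0.059 (SE), with an unadjusted p of 0.0176 and an adjusted p of 0.544. At matched times it was 0.34, 0.09 and 0.04 within runs 1 to 3 and 0.31 within run 4 (6 h alone), and it was 0.11 without the arrays of low correlation (unadjusted p = 0.0811). NAc shell values of Prkca averaged 8.29 ± 0.21 in ethanol and 8.24 ± 0.15 in water rats, a difference of 0.06 ± 0.06.

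Prkce averaged 10.38 ± 0.28 in ethanol and 10.25 ± 0.31 in water rats of the CeA, and 10.60 ± 0.26 and 10.50 ± 0.22 in those of the NAc shell. The differences of 0.135 ± 0.089 and 0.09 ± 0.07 (SE) were within the spread between arrays (adjusted p = 0.696 in the CeA). In both regions 20 of 31 ethanol arrays exceeded the mean of water rats at the same time.

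Camk2a encodes the alpha subunit of CaM kinase II, the main kinase of glutamatergic synapses, and Camk4 a calmodulin kinase of the nucleus that phosphorylates CREB. The CeA values of Camk2a 1389824_at were 7.85, 9.09 and 9.76 (lowest, median and highest) in ethanol rats, with a mean of 9.04 ± 0.42, and 8.04, 8.69 and 9.69 in water rats, with a mean of 8.72 ± 0.47. In 24 of 31 cases the ethanol array exceeded the mean of water rats at the same time, and the ranges almost coincided. The difference was 0.32 ± 0.13 (SE), with an unadjusted p of 0.0195 and an adjusted p of 0.552. Within runs 1 to 3 it was 0.17, 0.51 and 0.20 at matched times, and within run 4 (6 h alone) 0.54, and it was 0.35 ± 0.11 with the run as a block (adjusted p = 0.145). With array quality weights it was 0.45 (adjusted p = 0.0533). The main probe set, 1381637_at, averaged 9.68 ± 0.44 in ethanol and 9.55 ± 0.50 in water rats, and its difference was 0.15 ± 0.14 (adjusted p = 0.776). The third, 1388187_at, differed by 0.21 ± 0.16 (adjusted p = 0.729).

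Camk2a 1389824_at of the NAc shell averaged 9.87 ± 0.30 in ethanol and 9.88 ± 0.23 in water rats, a difference of −0.01 ± 0.08 (SE). For the other Camk2a probe sets, 1381637_at and 1388187_at, the differences were −0.03 ± 0.09 and 0.22 ± 0.14. The difference between the regions' ethanol effects was tested on 17572 probe sets, CeA minus NAc shell, treating the arrays as independent. It was 0.33 ± 0.16 for Camk2a 1389824_at, with an unadjusted p of 0.0409 and an adjusted p of 0.509. That was the only member of 14 with an unadjusted p under 0.05 in that test over the mean of the 3 times, against 9.39% of all probe sets. At an adjusted p under 0.05, 0 of 14 members and 0% of all probe sets passed.

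Camk4 had values of 6.97, 7.90 and 8.48 (lowest, median and highest) in ethanol rats of the CeA, with a mean of 7.86 ± 0.39, and of 6.94, 7.77 and 8.13 in water rats, with a mean of 7.63 ± 0.38. The difference of 0.24 ± 0.12 (SE) had an unadjusted p of 0.0435 and an adjusted p of 0.598, and 22 of 31 ethanol arrays exceeded the mean of water rats at the same time. At 6 h, 10 ethanol arrays had 7.16, 7.85 and 8.48, against 7.77, 7.34, 8.13, 7.16 and 6.94 in 5 water arrays. Both groups covered nearly the same range, and the ethanol mean was higher by 0.44 ± 0.21 (adjusted p = 0.571), or by 0.31 without the lowest water array (unadjusted p = 0.177). Camk4 of the NAc shell averaged 9.16 ± 0.34 in ethanol and 9.02 ± 0.28 in water rats, a difference of 0.15 ± 0.10.

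Across arrays, both kinases moved with markers of medium spiny neurons, the main cell type of the NAc shell. The mean of the 8 measured of 9 markers was 10.18 ± 0.47 (9.23 to 11) in ethanol and 10.03 ± 0.62 (9.01 to 11.06) in water rats of the CeA. For the NAc shell it was 12.36 ± 0.40 (11.25 to 12.85) in ethanol and 12.32 ± 0.30 (11.71 to 12.69) in water rats. For Camk4 and this mean, r was 0.740 and rho 0.662 in the CeA and 0.743 and 0.749 in NAc shell (48 arrays each, permutation p = 1e-05 for all, adjusted 1.5e-05 for r), and 0.689 and 0.693 without the 2 farthest arrays. Within the CeA runs r was 0.418, 0.828, 0.271 and 0.836. For Camk2a 1381637_at r was 0.629 in the CeA and 0.536 in NAc shell (rho 0.551 and 0.471; permutation p = 2e-05 and 8e-05; adjusted 2.67e-05 and 8.73e-05), or 0.557 and 0.507 without the 2 farthest, and it was −0.101 within run 1. In the CeA all 8 markers were higher in ethanol rats over the 3 times, with a median difference of 0.15 and 0 called, and their part in the Camk2a and Camk4 values was not tested.

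Camk2a 1381637_at and Camk4 moved together in the CeA and not clearly in NAc shell. Over the 48 CeA arrays r was 0.883 and rho 0.866 (permutation p = 1e-05 each, adjusted 1.5e-05 for r). Without the 2 farthest arrays r was 0.868. NAc shell values were lower, with r = 0.209 and rho = 0.255 over 48 arrays (permutation p = 0.152 and 0.0801). There r rose to 0.351 when the 2 farthest arrays were left out. Within the CeA runs r was 0.673, 0.897, 0.871 and 0.780. The difference between the regions' correlations was not tested.

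**Figure D3:**
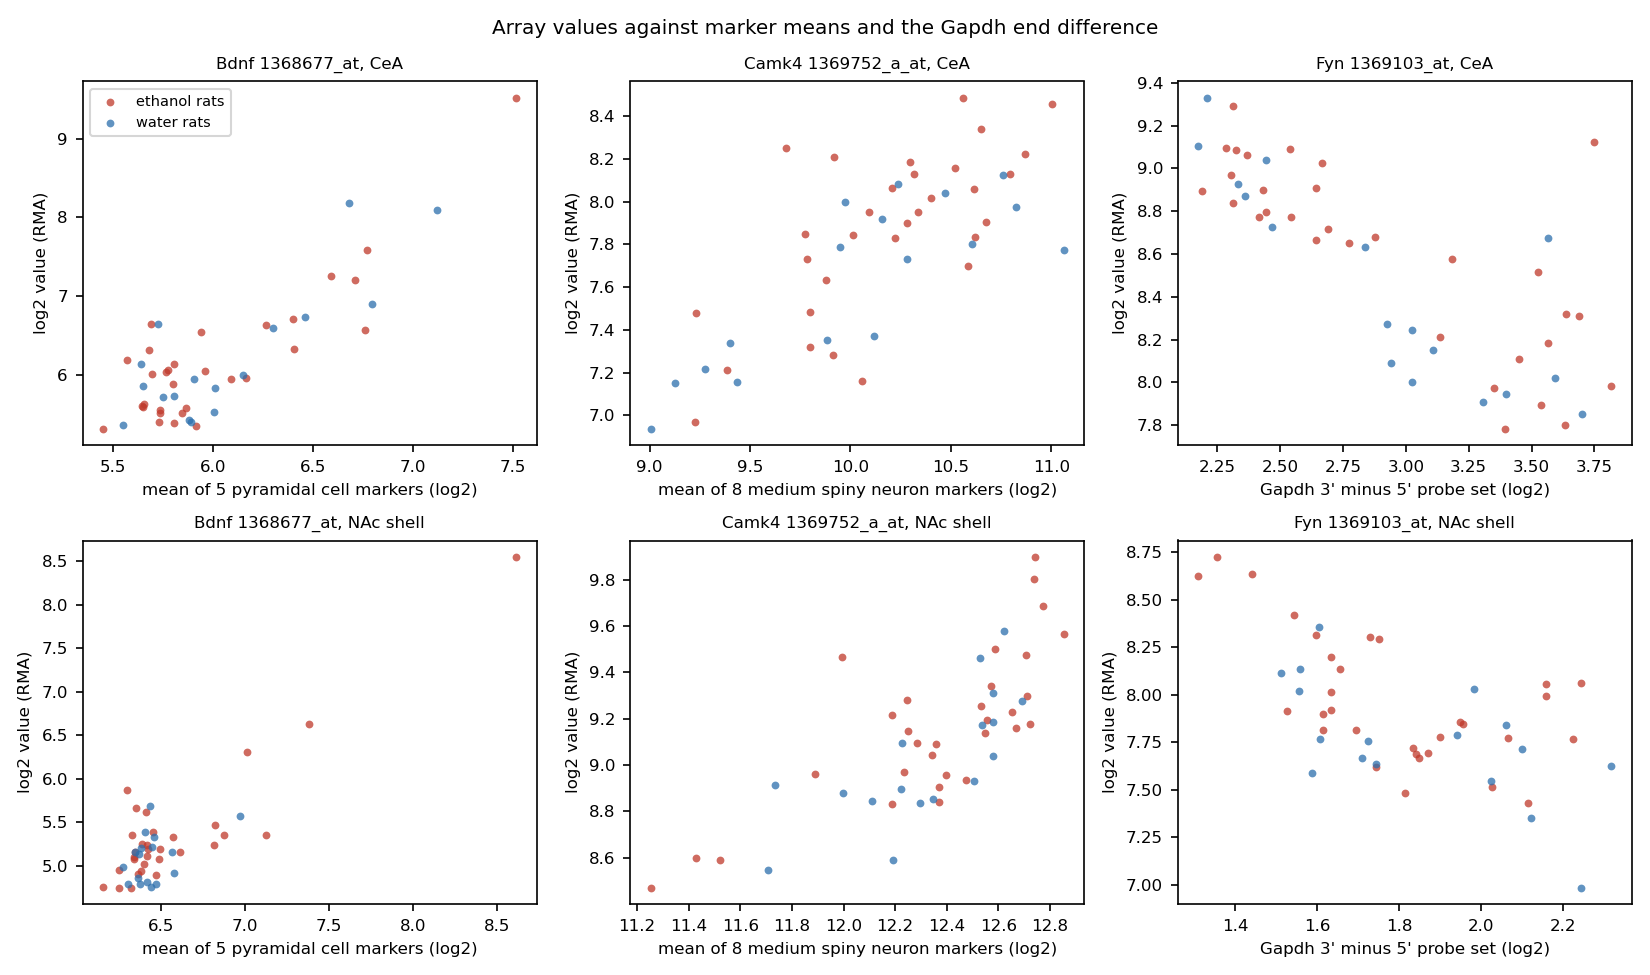
Log2 values of single arrays in the CeA (top row) and NAc shell (bottom row), ethanol and water rats in separate colours, for Bdnf 1368677_at against the mean of 5 pyramidal cell markers, Camk4 against the mean of 8 medium spiny neuron markers, and Fyn 1369103_at against the Gapdh 3′ minus 5′ difference. The highest Bdnf values, 9.51 in the CeA and 8.55 in NAc shell, lie at the highest pyramidal means, 7.52 and 8.61.

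Creb1, the transcription factor at the end of this pathway, had values of 8.50, 8.91 and 9.51 (lowest, median and highest) for 1375655_at in ethanol rats of the CeA, with a mean of 8.92 ± 0.20, and of 8.36, 8.77 and 9.18 in water rats, with a mean of 8.76 ± 0.23. In 26 of 31 cases the ethanol array exceeded the mean of water rats at the same time, and the groups overlapped. The difference was 0.157 ± 0.064 (SE), with an unadjusted p of 0.0182 and an adjusted p of 0.546. Ethanol rats averaged 8.91 ± 0.10, 9.0 ± 0.26 and 8.85 ± 0.20 at 1, 6 and 24 h, against 8.76 ± 0.22, 8.76 ± 0.26 and 8.77 ± 0.24 in water rats. At 6 h the water arrays had 8.69, 9.18, 8.74, 8.44 and 8.75, and 10 ethanol arrays had 8.57, 9.05 and 9.51 as lowest, median and highest value. A single water array lay near the top of the ethanol range, and the 6 h difference was 0.24 ± 0.12 (adjusted p = 0.571).

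Run by run at matched times, the Creb1 difference in the CeA was 0.21, 0.01 and 0.15 in runs 1 to 3, and 0.60 in run 4 (6 h alone). Without the arrays of low correlation it was 0.11 over the 3 times (unadjusted p = 0.0787) and 0.10 at 6 h, where it was 0.16 without the lowest water array alone. Array quality weights lowered it to 0.05 (unadjusted p = 0.363). Creb1 of the NAc shell averaged 8.86 ± 0.24 in ethanol and 8.80 ± 0.23 in water rats, a difference of 0.08 ± 0.07. The 3 dim Creb1 probe sets and the dim Camk2a and Camk4 probe sets differed by −0.01 to 0.05 between ethanol and water rats in both regions.

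Creb1 and Prkca moved together across arrays in both regions, and so did other pairs of members, such as Prkce and Camk4. Their correlation was r = 0.666 and rho = 0.591 in the CeA and 0.560 and 0.470 in NAc shell (48 arrays each; permutation p = 1e-05 and 3e-05, 3e-05 and 0.00091; adjusted 1.5e-05 and 3.6e-05 for r). Without the 2 farthest arrays r was 0.645 and 0.495, and within the CeA runs it was 0.805, 0.686, 0.354 and 0.742. Both values come from the same arrays and share their normalization.

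By the mean of the correlations in the 2 regions after group means were removed, the genes most like each main probe set were named from 9935 candidates, as a description. For Camk4 these were Rprml (r = 0.90 in the CeA and 0.88 in NAc shell), Dusp14 and Pdk3, and for Camk2a Fstl4 (0.92 and 0.75), Traip and Anks1b. For Creb1 they were Maoa (0.70 and 0.75), Sh3bgrl1 and Lrp6, and for Prkca Fcgrt (0.48 and 0.68), Nab1 and Lrp6. Prkce was most like Snph (0.73 and 0.77), Cyp46a1 and Mmp17, and Fyn most like Selenop (0.70 and 0.80), Sall1 and Itprid2. Ntrk2 had no close match, with Usp42 (0.48 and 0.63), Strap and Tmem167b first. For Bdnf 1368678_at they were Slc30a3 (0.78 and 0.49), Nptxr and Lingo1, and Bdnf 1368677_at, added after its values were seen, gave Nptxr (0.83 and 0.91), Cck and Slc30a3. These correlations rest on 48 arrays per region, which share their normalization.

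Time since the last session was compared within each treatment and over both. The sampling times may also differ in time of day, and its part was not tested. None of the 14 probe sets passed adjustment. Within ethanol rats 0.0591% of all probe sets passed in the CeA and 0.0376% in NAc shell, and within water rats 0% in both. Over both treatments 0.166% passed in the CeA and 0.0805% in NAc shell. At an unadjusted p under 0.05, 0 of 14 passed the test over both treatments in the CeA (5.56% of all) and 2 of 14 in NAc shell (8.41% of all). Ntrk2 1370652_at of the NAc shell was lowest at 6 h in both treatments: 8.29 ± 0.57, 7.89 ± 0.40 and 8.25 ± 0.43 at 1, 6 and 24 h in ethanol rats, and 8.09 ± 0.53, 7.68 ± 0.47 and 8.50 ± 0.65 in water rats. The water arrays had 9.39, 8.86, 8.19, 7.67 and 8.41 at 24 h and 7.58, 7.94, 8.04, 7.94 and 6.90 at 6 h, and they overlapped. Over both treatments 24 h minus 6 h was 0.59 ± 0.18 (SE), with an unadjusted p of 0.00239 and an adjusted p of 0.470. In water rats of the CeA 24 h minus 6 h of the same probe set was 0.68 ± 0.29 (adjusted p = 0.659), but ethanol rats there averaged 8.83 ± 0.45 at 24 h and 8.95 ± 0.41 at 6 h.

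Prkca of ethanol rats in the NAc shell averaged 8.30 ± 0.15, 8.41 ± 0.19 and 8.16 ± 0.22 at 1, 6 and 24 h, against 8.24 ± 0.22, 8.23 ± 0.11 and 8.23 ± 0.05 in water rats. In ethanol rats 24 h minus 6 h was −0.25 ± 0.08 (SE), with an unadjusted p of 0.00288 and an adjusted p of 0.485, and 5.92% of all probe sets had an unadjusted p under 0.05 there. The lowest, median and highest values were 7.57, 8.17 and 8.46 at 24 h and 8.21, 8.36 and 8.77 at 6 h, so the groups overlapped. Arrays of low correlation were among them: those with 7.574 and 8.114 at 24 h, and with 8.494 and 8.671 at 6 h. The Prkca difference without these arrays is not given here. Without them, 1 of the 14 probe sets had an unadjusted p under 0.05 for time within ethanol rats there, against 2 in the main fit. For Ntrk2 1370687_a_at of the NAc shell, 24 h minus 1 h over both treatments was −0.157 ± 0.057 (adjusted p = 0.440). In every one of the 42 pairs of probe set and region, the arrays of the group with the lowest mean overlapped those of the group with the highest.

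The levels in the 2 regions are given as a description, since each region looks to have been normalized on its own. Camk4 averaged 7.78 ± 0.40 in the CeA (48 arrays, 6.94 to 8.48) and 9.12 ± 0.32 in the NAc shell (8.47 to 9.90), and the 2 ranges met only at their ends. The lowest NAc shell array, 8.472, was 1 of the arrays of low correlation. The next lowest, 8.549, lay above the highest CeA array, 8.484, so the ranges overlapped through that 1 array alone. Camk2a 1381637_at averaged 9.63 ± 0.46 and 10.90 ± 0.29, and its other tested probe sets were lower in the CeA by 0.95 and 1.04. Quantile normalization over all arrays left these differences at −1.30 for Camk4 and −1.29 for Camk2a 1381637_at. The Ntrk2 probe sets were higher in the CeA, by 0.04 to 0.67, as were those of Fyn, with 11.44 ± 0.18 and 10.89 ± 0.16 for 1373683_at. Creb1 averaged 8.86 ± 0.22 and 8.84 ± 0.23, Prkca 7.94 ± 0.20 and 8.27 ± 0.19, and Prkce 10.33 ± 0.29 and 10.57 ± 0.25. Of the 14 tested probe sets 0 had regions that did not overlap, against 5.59% of the probe sets tested in both regions. Camk4 was counted as overlapping by 1 array. After quantile normalization over all arrays, 1 of 14 did not overlap, Ntrk2 1383135_at (5.45%). Of all 21, 3 did not overlap (15.5% of all probe sets), all of them dim, and after that normalization 2 of 21 (8.78%), Ntrk2 1383135_at and the dim Camk2a 1368935_at.

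**Figure D4:**
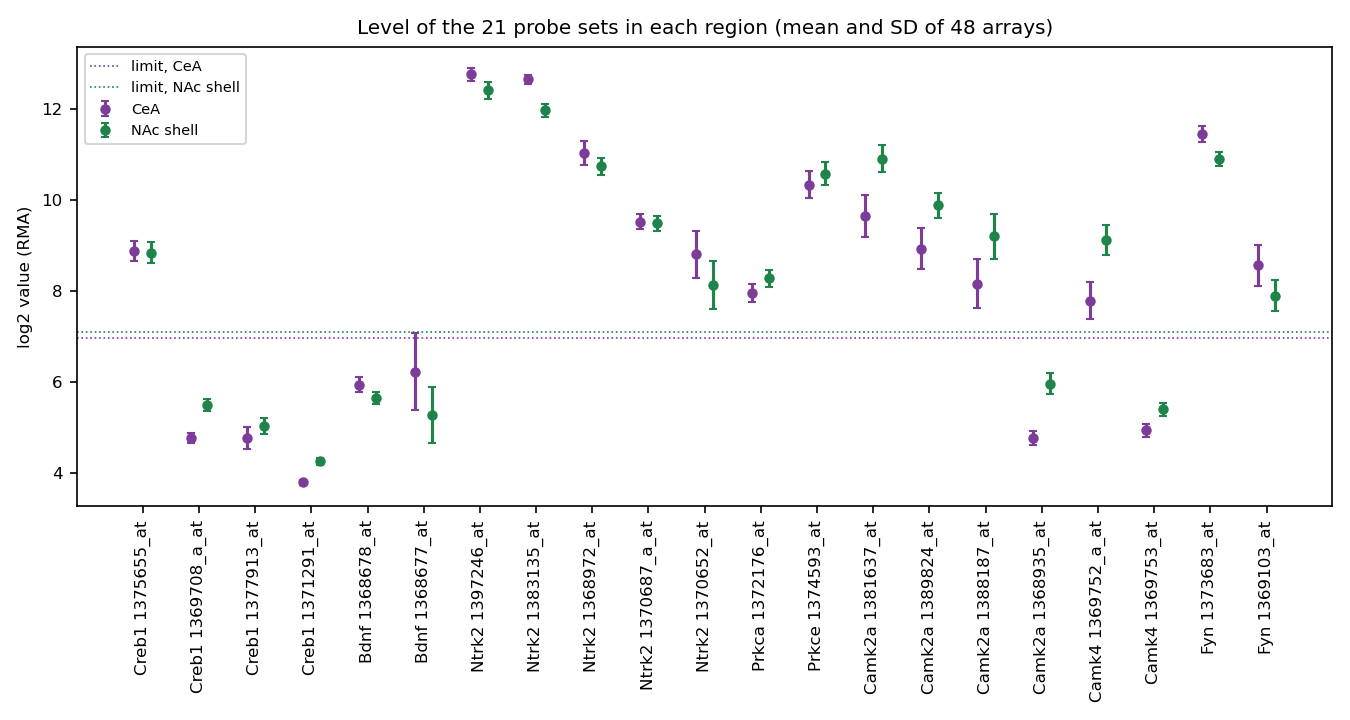
Mean log2 value and SD over 48 arrays for each of the 21 probe sets in the CeA and, to its right, the NAc shell; dotted lines are the testing limits, 6.96 and 7.09. Camk2a and Camk4 are lower in the CeA, and the Bdnf probe sets lie under both limits.

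Lists of other genes of the pathway were written from textbook knowledge with earlier results known. CREB-responsive genes, such as the immediate early genes Fos, Fosb and Egr1 and the peptide precursors Vgf and Sst, were mostly higher in ethanol rats, and none passed. Over the 3 times, 18 of 22 tested of 24 listed were above 0 in the CeA (49.3% of all probe sets), with a median difference of 0.12 (all probe sets −0.001). In the NAc shell 17 of 21 were above 0 (53.4% of all), with a median of 0.07 (0.006). In the CeA, 11 of 22 were above 0 at 1 h (median −0.01), 20 at 6 h (median 0.37, against −0.02 for all probe sets) and 12 at 24 h (median 0.07). Of all probe sets, 55.5%, 46.1% and 48.8% were above 0 at these times. NAc shell counts at these times were 14, 12 and 15 of 21 (medians 0.03, 0.03 and 0.09), against 52%, 53% and 53.8% of all probe sets. At an unadjusted p under 0.05, 4 of 22 were higher in the CeA at 6 h, against 3.54% of all probe sets: Fosb by 1.13 ± 0.43 (SE), Egr2 by 1.48 ± 0.65, Fos by 0.59 ± 0.27 and Egr1 by 0.56 ± 0.26, each with an adjusted p of 0.571. These 6 h values rest on 5 water arrays, 2 of them of run 4. They are not given without the arrays of low correlation. Of the 5 genes with a full element in their window, Sst differed by 0.55 ± 0.33 at 6 h in the CeA, Cartpt by 0.68 ± 0.46, Vgf by 0.21 ± 0.14, Dusp1 by 0.07 ± 0.17 and Ppargc1a by −0.24 ± 0.14. Over the 3 times in the NAc shell, Vgf differed by 0.20 ± 0.07 (adjusted p = 0.280), Junb by 0.27 ± 0.11 and Nr4a3 by 0.38 ± 0.19.

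Single CREB-responsive genes differed by time over both treatments, and the part of time of day was not tested. In the CeA, Per1, a clock gene with cyclic AMP response elements, was higher at 24 h than at 6 h by 0.50 ± 0.09 (SE, adjusted p = 0.00334), the 1 of 22 that passed, against 0.247% of all probe sets. Nr4a3, an orphan nuclear receptor, was higher at 24 h than at 6 h in the NAc shell by 1.10 ± 0.24 (adjusted p = 0.0389), 1 of 21, against 0.0859%. With each of the 48 arrays left out in turn, Per1 passed every time, while Nr4a3 did not pass in 18 of the 48 fits (adjusted p up to 0.130).

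The other lists were mixed in direction for ethanol in the CeA over the 3 times, and 0 members of any list were called. Differences were above 0 in 3 of 5 neurotrophins and processing enzymes, 5 of 9 neurotrophin receptors and adaptors, 5 of 8 genes of the MAP kinase and RSK branch, and 6 of 8 of the PI3 kinase and AKT branch. They were above 0 in 5 of 10 CREB family members and coactivators, 4 of 9 protein kinase A subunits, 5 of 8 other protein kinase C isoforms, 7 of 10 other calmodulin kinases and calmodulins, 3 of 9 Src-family genes and 4 of 10 phosphatases. NAc shell counts were 1 of 4, 5 of 8, 3 of 8, 5 of 8, 5 of 10, 5 of 8, 6 of 8, 8 of 10, 5 of 9 and 9 of 10 in the same order. Beside the 6 h values of the CeA, microglia markers were lower in ethanol rats in 6 of 6 cases (median −0.30), oligodendrocyte markers in 6 of 6 (median −0.36) and endothelium markers in 5 of 5 (median −0.17). Higher values were seen in 5 of 5 central amygdala neuron markers (median 0.40) and 7 of 8 medium spiny neuron markers (median 0.14). They were seen in only 2 of 7 general neuron markers (median −0.05) and 2 of 7 astrocyte markers (median −0.004), against 46.1% of all probe sets. Sst is on both the central amygdala and the CREB-responsive list. None of these markers was called, and their part in the 6 h values was not tested. The marker values at 6 h rest on the same 5 water arrays and are not given without the arrays of low correlation.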

How the data were processed

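RNA of 96 samples was labelled from 25 ng in 2 cycles and hybridised to Affymetrix rat arrays, per the labels' protocols. The deposited values are log2 expression from RMA, per the labels; the version of RMA and any later step are not given in the sources used here. Arrays give no read depth, and precision rests on how many there are. Of 31099 probe sets, 57 controls were left out. Symbols came from the platform annotation: 20826 probe sets had 1, 436 several, which were not named, and 9780 were not listed. Start windows are from RefSeq GRCr8.

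Each region was fitted with limma 3.58.1 in R 4.3.3 (lmFit, eBayes with an intensity trend) on 6 group means, over the 18625 probe sets whose mean lay above the 40th percentile, and p-values were adjusted by the Benjamini-Hochberg method over them. Main probe sets have the highest mean over all arrays. The regions' ethanol effects were compared on 17572 probe sets. All members are reported. From the other pathway lists the genes that passed are named, with up to 3 by smallest p, and Egr1, the genes with a full element and the examples of a list were named after their values were seen. Correlations, their permutation tests and figures used Python 3.11.15, scipy 1.17.1 and matplotlib 3.10.9, and 2 of the probe sets set against marker means or Gapdh were chosen after their values were seen. Permutation shuffled all 48 arrays of a region, without regard to treatment, time or run. Its p-values were adjusted over the 12 relations so tested, not over the other correlations computed. An array stood apart where its median correlation lay more than 3 scaled median absolute deviations below its region's median. The fits were tested on simulated data.

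Alternatives were other filters, repeated quantile normalization, array weights, the Gapdh covariate, replicate and run blocks, values within runs (also at matched times, added after the data were seen), and leaving out arrays. Replicate numbers in titles were treated as names. The 17 pairs of CeA arrays of the same number had a mean residual correlation of 0.0725, against −0.0029 for other numbers, and 8 were over 0.1. Arrays of the same run had a mean of 0.209, against −0.082 for other runs. Whether the numbers pair the arrays cannot be told from these values. Members and lists were chosen with earlier results of these data known.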

Additional observations from a re-analysis of the deposited data

Results flagged for a closer look

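Within groups of 4 to 10 arrays, 13 of 210 combinations of probe set and group held 1 array whose gap to the nearest other array was large against the range of the group. Chance flags about 1 in 20 groups. They concern 9 probe sets. Bdnf 1368677_at reached 9.514 in 1 ethanol array at 6 h in the CeA, where the nearest array had 7.592, and 8.545 in 1 ethanol array at 6 h in the NAc shell, where the nearest had 5.67. That NAc shell array also had the highest value of its group for Ntrk2 1368972_at, 11.43 against 10.85 in the nearest array, and for Prkce, 11.35 against 10.86.

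In the same group, Camk4 1369752_a_at was low in 1 other array (8.472, nearest 8.97). In ethanol rats of the NAc shell at 1 h, Camk2a 1388187_at was low in 1 array (7.753, nearest 8.956). Prkca was high in 1 array (8.71, nearest 8.369), as was Ntrk2 1383135_at (12.29, nearest 12.05). In water rats of the NAc shell at 24 h, Ntrk2 1383135_at was high in 1 array (12.44, nearest 11.91). The remaining values belong to dim probe sets. Camk4 1369753_at was 5.123 in 1 water array at 6 h in the CeA (nearest 4.826). In the NAc shell it was 5.155 in 1 water array at 1 h (nearest 5.396) and 5.058 in 1 water array at 24 h (nearest 5.323). Creb1 1377913_at was 4.285 in 1 ethanol array at 24 h in the CeA (nearest 4.6).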

How the results depend on the processing

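No member passed adjustment under any alternative. With the replicate number as a block, 0 members were called and 5 of 14 again had an unadjusted p under 0.05 in the CeA over the 3 times. The share of all probe sets at that threshold was not worked out for that fit. For ethanol minus water over the 3 times, some differences changed sign, and the cause was not tested. Most were near 0, but Camk2a 1388187_at (0.214) and Fyn 1369103_at (0.145) in the CeA were not. In the CeA, Ntrk2 1370687_a_at was 0.00213 with the replicate block, 0.00333 with the run block, and 0.12 and 0.00702 within runs 1 and 3. Ntrk2 1383135_at was −0.0101, −0.0205 and −0.00805 within runs 2 to 4, and Ntrk2 1397246_at −0.0424, −0.0304 and −0.0468 within runs 1, 2 and 4. Within run 3, Fyn 1373683_at was 0.0199 and Camk2a 1388187_at −0.17. Fyn 1369103_at was −0.0556 with array weights. At matched times, added after seeing the data, Ntrk2 1370687_a_at was 0.129 and 0.0172 within runs 1 and 3, Ntrk2 1383135_at −0.00647, −0.0356 and −0.0156 within runs 2 to 4, and Ntrk2 1397246_at −0.0461, −0.0269 and −0.0428 within runs 1, 2 and 4. Fyn 1369103_at was −0.034 within run 2, and within run 3 Fyn 1373683_at was 0.0236, Prkce −0.00697, Camk2a 1381637_at −0.0579 and Camk2a 1388187_at −0.258. In the NAc shell, array weights gave 0.0138 for Ntrk2 1383135_at and 0.012 for Camk2a 1389824_at. The Gapdh covariate gave 0.0227 for Ntrk2 1383135_at and −0.0084 for Ntrk2 1370687_a_at. Without the arrays of low correlation, Ntrk2 1370687_a_at was −0.0244 and Camk2a 1389824_at 0.0431.

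Leaving out 1 array at a time also turned signs. In the CeA the differences ran between −0.0241 and 0.0118 for Ntrk2 1370687_a_at, −0.00578 and 0.0245 for 1383135_at, and −0.00831 and 0.0227 for 1397246_at. In the NAc shell they ran between −0.043 and 0.0168 for Camk2a 1389824_at, −0.0167 and 0.126 for Ntrk2 1370652_at, −0.00614 and 0.0243 for 1370687_a_at, and −0.0204 and 0.0333 for 1383135_at.

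Unadjusted counts moved more, and the shares of all probe sets at that threshold were worked out only for the main fit and the run block. The 5 CeA members over the 3 times became 3 above the 60th percentile and 3 to 5 without 1 array. The 1 NAc shell member became 0 above the 60th percentile, 3 without the arrays of low correlation and 0 to 2 without 1 array. The 3 CeA members at single times became 5 with array weights and 1 to 4 without 1 array. The 1 NAc shell member at single times became 0 above the 60th percentile or with array weights, 2 without the arrays of low correlation and 0 to 3 without 1 array. Over all probe sets, 0 called in the CeA over the 3 times became 74 with array weights, 48 with the run block, 21 without the arrays of low correlation, 2 with the Gapdh covariate, 2 with the replicate block and 0 to 14 without 1 array. Of probe sets that differed by time over both treatments, 31 in the CeA became 14 above the 60th percentile, 10 without the arrays of low correlation and 9 to 38 without 1 array. In the NAc shell 15 became 45 with array weights, 6 without the arrays of low correlation and 1 to 21 without 1 array. For the difference between regions, 0 became 2 without a filter and 16 with array weights. Within ethanol rats, 11 in the CeA became 4, 27, 7 and 18 above the 60th percentile, with array weights, without the arrays of low correlation and with the run block. In the NAc shell 7 became 4 above the 60th percentile, 2 without the arrays of low correlation and 3 to 10 without 1 array. The number of arrays, 5 to 11 a group, limits the precision.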
